A study of Mus musculus with 3 samples.

Results

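The cell cycle and DNA replication genes described here are 43 genes chosen by name, 21 of the G1 to S transition, 17 of G2 and mitosis and 5 inhibitors of cyclin-dependent kinases. Of these, 42 had at least 1 probe set annotated to them alone, 101 probe sets in all, among 18193 genes so named on the array. The cyclin gene Ccnb1 is not analysed here. A gene was read by its probe set of highest mean log2 signal, and 30 of the 42 had further probe sets, up to 7.

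PDL-L2 cells were used, a line made by immortalising fibroblasts of the mouse periodontal ligament, so the data describe 1 line and not the ligament itself. All cells were transfected with an siRNA pool 48 h before treatment and were treated for 12 h in a differentiation medium that held ascorbic acid and beta-glycerophosphate. The first group received the non-target control pool (siCont) and vehicle, the second siCont and recombinant human BMP-2 at 250 ng/ml, and the third the pool against endoglin (siENG) and the same dose of BMP-2. Total RNA was hybridised to Affymetrix mouse arrays, 1 for each of the 3 groups. With no replicate arrays, no difference has a replicate check and p-values are not given. There was no group of siENG with vehicle. In bulk RNA, fewer cells in a phase and less RNA per cell cannot be told apart.

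A cell enters S phase when D-type cyclins with Cdk4 or Cdk6, and then E-type cyclins with Cdk2, phosphorylate the retinoblastoma protein and release E2F factors, which switch on genes for origin licensing, nucleotide supply and DNA synthesis. Cyclins A and B with Cdk1 then drive G2 and mitosis, and the genes of that later wave are switched largely through a promoter element called the cell cycle genes homology region (CHR), often beside CCAAT boxes. Inhibitors of the Cip/Kip and INK4 families hold the kinases back. In the ligament, fibroblasts divide slowly to renew the tissue, whereas an immortalised line divides continuously.

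The promoters were searched for the elements of both waves. RefSeq promoter windows of GRCm38.p6, from 250 bases before to 50 bases after a start site, were found for 35 of the 43 genes. Both strands were read for E2F motifs spelled TTCCCGC or TTGGCGC, for the CHR spelled TTTGAA and for CCAAT. An E2F motif was held by 8 of 17 G1/S genes (47.1%) and 3 of 14 G2/M genes (21.4%), and by 7.79% of 27025 genes with a window. Of the inhibitors, 2 of 4 held one, by gene a share as high as that of the G1/S genes. Counted by window, it was 2 of 6 for the inhibitors and 9 of 19 for the G1/S genes. The CHR was held by 10 of 14 G2/M genes (71.4%) and 1 of 17 G1/S genes (5.88%), and by 20.2% of all genes. A CCAAT was held by 13 of 14 G2/M genes, 10 of 17 G1/S genes and 41.1% of all genes. Of the 39 member windows, 2 had an E2F match that overlapped a CCAAT match. A match is a string of letters and not a measured binding site.

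Windows of 4 members are shown as a licensing gene, a mitotic gene and the genes furthest from 0, past the signal limit of 152, in each of the first 2 comparisons. Mcm3 (chr1:20820263-20820562, minus strand) is a licensing gene with E2F motifs and Cdk1 (chr10:69352863-69353162, minus strand) a mitotic gene with motifs of all 3 kinds. In their brightest probe sets, the relative levels of both differed little in the first 2 comparisons. Rrm2 (chr12:24708004-24708303, plus strand) had the highest relative level with BMP-2 against vehicle, and Ccne1 (chr7:38107441-38107740, minus strand) the lowest with siENG relative to siCont among those past the signal limit. Capitals mark E2F, CHR and CCAAT matches on either strand, and each window is read 5′ to 3′ along its gene.
Mcm3: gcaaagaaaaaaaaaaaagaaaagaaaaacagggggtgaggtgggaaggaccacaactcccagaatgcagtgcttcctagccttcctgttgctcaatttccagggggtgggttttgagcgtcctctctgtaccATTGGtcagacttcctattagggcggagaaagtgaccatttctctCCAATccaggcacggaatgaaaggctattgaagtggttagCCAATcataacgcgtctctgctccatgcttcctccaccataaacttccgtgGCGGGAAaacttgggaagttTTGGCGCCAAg
Cdk1: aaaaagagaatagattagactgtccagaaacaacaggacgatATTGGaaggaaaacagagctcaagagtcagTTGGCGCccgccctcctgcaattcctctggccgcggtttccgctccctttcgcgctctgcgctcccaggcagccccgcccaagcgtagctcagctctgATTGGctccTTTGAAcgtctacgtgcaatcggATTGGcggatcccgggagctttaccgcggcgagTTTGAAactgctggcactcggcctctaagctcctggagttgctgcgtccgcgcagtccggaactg
Rrm2: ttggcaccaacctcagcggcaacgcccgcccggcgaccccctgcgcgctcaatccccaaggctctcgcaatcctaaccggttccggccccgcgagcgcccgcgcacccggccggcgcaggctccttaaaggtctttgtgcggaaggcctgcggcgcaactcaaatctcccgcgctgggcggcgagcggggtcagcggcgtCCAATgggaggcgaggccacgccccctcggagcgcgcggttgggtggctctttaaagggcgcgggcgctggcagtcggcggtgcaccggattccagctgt
Ccne1: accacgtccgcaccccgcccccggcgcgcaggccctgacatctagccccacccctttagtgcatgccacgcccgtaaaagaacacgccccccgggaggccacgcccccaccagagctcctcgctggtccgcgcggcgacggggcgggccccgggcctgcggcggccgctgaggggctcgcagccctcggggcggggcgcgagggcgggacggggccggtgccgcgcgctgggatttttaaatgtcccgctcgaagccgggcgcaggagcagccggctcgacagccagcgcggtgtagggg
The Rrm2 window held 1 CCAAT and neither an E2F motif nor a CHR in these spellings, and the Ccne1 window held none of the 3 motifs. The Mcm3 window held 3 E2F matches and 3 CCAAT matches, and the Cdk1 window 1 E2F match, 2 CHR matches and 3 CCAAT matches.

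The siENG array was brighter as a whole. Among probe sets whose higher signal reached 23.0, the median of the table, the median log2 ratio was 0.01 between the siCont arrays (BMP-2 over vehicle), and the siENG array exceeded the array of siCont with BMP-2 by 0.21 and that of vehicle by 0.22. Ratios below are given relative to that median (relative log2 ratio) and signals as deposited. Precision depended on brightness. The robust SD of relative log2 ratios in 20 bins of mean signal was 0.11 in the brightest bin and up to 2.65 among dim bins for BMP-2 over vehicle, and 0.22 and up to 2.82 for siENG over siCont with BMP-2. Endoglin (Eng), the siRNA target, had signals of 286 with vehicle, 299 with BMP-2 and 108 with BMP-2 after siENG. Of the fibroblast and ligament markers, Col1a1, Col1a2, Col3a1, Vim, Pdgfrb and Postn had signals of at least 1662 on every array, Scx between 27.3 and 42.3 and Thy1 of 12.6 or less, which is no higher than Bacillus controls (up to 13.1), whose targets mouse RNA does not hold. The leukocyte gene Ptprc and 3 of 4 endothelial genes (Pecam1, Cdh5 and Tek) were also at or below 13.1 on every array, while the other, Kdr, had 4.2 with vehicle and was above 13.1 on both BMP-2 arrays, at up to 25.8. Of the 4 epithelial markers, Epcam had 26.2, 26.9 and 11.9, Krt14 25.2, 7.3 and 11.8, Krt5 at most 21.4 and Cdh1 at most 15.0.

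The signals of the cell cycle genes were well above the control range. On all 3 arrays 40 of the 42 genes had a signal of at least 199, the others being Tyms (64.5 to 103) and Cdkn1c (9.2 to 27.7). Mki67, a protein of dividing cells, had signals of 1414 with vehicle, 1276 with BMP-2 and 1303 with BMP-2 after siENG. Pcna, the sliding clamp of DNA polymerases, had 6794, 6729 and 6747, and Cdk1, the kinase of mitotic entry, had 2037, 1917 and 2026. As deposited, each of these genes had similar signals in all 3 groups. Relative to the array median, BMP-2 after siENG over vehicle was -0.34 for Mki67, -0.23 for Pcna and -0.23 for Cdk1. The robust SD at these signals was 0.22. For BMP-2 over vehicle the values were -0.16, -0.02 and -0.10, with a robust SD of 0.11. Signals of different probe sets do not rank genes by amount.

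**Figure D1:**
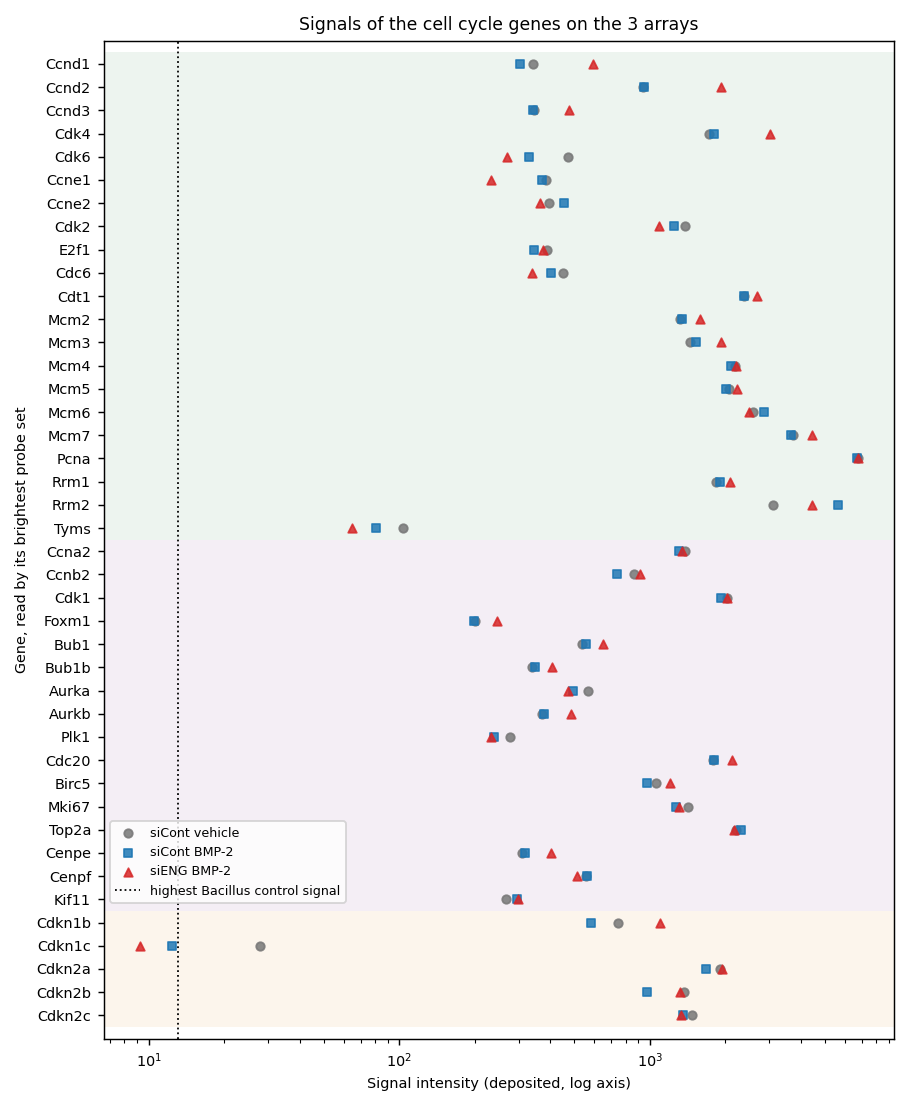
Deposited signal intensity (log axis) of 42 cell cycle genes, each by its brightest probe set, with 1 point for each array and no error bars because each group has 1 array. Green, purple and orange shading marks G1/S, G2/M and inhibitor genes, and the dotted line the highest Bacillus control signal of 13.1. For most genes the siCont points lie close together, while the siENG points of Ccnd1, Ccnd2 and Cdk4 lie to the right and that of Ccne1 to the left.

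The first comparison asks which genes BMP-2 changes in cells with endoglin. Most cell cycle genes differed by less than 1.5-fold between BMP-2 and vehicle. Of 42 members past the signal limit, 1 (Rrm2) was higher by 1.5-fold or more, 1 (Cdkn1c) was lower by as much and 40 lay between. Cdkn1c passed that limit through the vehicle array alone. Over the 10810 genes kept, 4.82% were higher and 4.44% lower by 1.5-fold. At 2-fold, where 1.78% of all genes were higher and 1.59% lower, 0 members were higher and 1 was lower. The median relative log2 ratio was -0.02 over 21 G1/S genes, -0.01 over 16 G2/M genes and -0.36 over 5 inhibitors, and 0.00 over all genes kept. Of all members, 54.8% lay within 1 robust SD of probe sets of similar signal, against 63.9% of all genes kept. For G1/S genes the share was 57.1% and for G2/M genes 68.8%.

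Rrm2, the regulated subunit of ribonucleotide reductase, which makes the deoxynucleotides of S phase, stood apart. Its signals were 3099 with vehicle, 5640 with BMP-2 and 4428 with BMP-2 after siENG, so both BMP-2 arrays were above vehicle and the siENG array lay between. With BMP-2 its relative log2 ratio to vehicle was 0.86, and the robust SD at that signal was 0.11. The other probe sets had 1641, 3003 and 2524, and 1741, 3629 and 2711 in the same order of arrays. All 3 probe sets gave the same order, with relative log2 ratios of 0.86 to 1.05 for BMP-2 over vehicle. The study lists Rrm2 among the genes it called induced on these same arrays, so its direction is not independent evidence.
Rrm1, the large subunit of the same enzyme, had signals of 1839, 1911 and 2082 and a relative log2 ratio of 0.05. The log2 ratio of Rrm2 exceeded that of Rrm1 by 0.81, a difference that a single scaling factor per array cannot change. Pcna was at -0.02. Tyms, the thymidylate synthase, had signals of 103, 80.7 and 64.5 and a relative log2 ratio of -0.36. It was dim, and the robust SD at its signal was 0.29.

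The licensing genes were nearly level in their brightest probe sets. Cdc6 and Cdt1 load the Mcm2 to Mcm7 helicase onto origins in G1. The relative log2 ratios of the 6 helicase genes for BMP-2 over vehicle ran from -0.06 (Mcm4) to 0.13 (Mcm6). Their other probe sets past the limit ran from -0.78 (Mcm5) to 0.15 (Mcm3), both in dim probe sets. A brighter one of Mcm5 was at -0.27 and the second of Mcm2 at -0.20. Cdt1 was at -0.01 and Cdc6 at -0.17, with signals of 452 with vehicle and 403 with BMP-2. Ccne1 and Ccne2, the E-type cyclins, were at -0.06 and 0.19, their kinase Cdk2 at -0.15 and the transcription factor E2f1 at -0.18.

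Among the D-type cyclins and their kinases Cdk6 differed most between BMP-2 and vehicle. Its signals were 471 with vehicle, 329 with BMP-2 and 268 with BMP-2 after siENG, lower at each step. Its relative log2 ratio to vehicle was -0.53 with BMP-2 and the robust SD at that signal 0.17. All 3 probe sets of Cdk6 were lower with BMP-2, at -0.58 to -0.53. Cdk4, which binds the same cyclins, was at 0.05, Ccnd2 at 0.00, Ccnd3 at -0.02 and Ccnd1 at -0.18.

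The 16 G2/M genes lay in a narrow band from -0.23 to 0.13 with BMP-2 over vehicle, and 8 were above 0 and 8 below. The lowest was the mitotic cyclin Ccnb2, with signals of 865 with vehicle, 740 with BMP-2 and 910 with BMP-2 after siENG. Plk1 and Aurka, kinases of spindle assembly, followed at -0.22 and -0.21. Kif11, the motor that pushes spindle poles apart, was highest at 0.13. The others were within 0.16 of 0, among them the checkpoint kinase gene Bub1 (0.05), its relative Bub1b (0.04), the chromosomal passenger genes Aurkb (0.02) and Birc5 (-0.13), the activator of mitotic exit Cdc20 (0.00), the topoisomerase Top2a (0.06), the kinetochore genes Cenpe (0.03) and Cenpf (0.01), the cyclin Ccna2 (-0.08) and the transcription factor Foxm1 (-0.01).

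All 5 inhibitors were lower with BMP-2 than with vehicle in their brightest probe set. Of the 5, 0 lay within 1 robust SD of probe sets of similar signal, as 63.9% of all genes kept did. Both counts include Cdkn1c, which passed the signal limit through the vehicle array alone. Cdkn2c lay only just outside, at -0.13 with a robust SD of 0.11. Of 3 further inhibitors, Cdkn2d was at -0.30, Cdkn3 at -0.09 and Cdkn1a at -0.03, and 2 of the 3 lay within 1 robust SD. Cdkn2b (p15), an INK4 inhibitor known as a target of TGF-β, had signals of 1369 with vehicle, 971 with BMP-2 and 1322 with BMP-2 after siENG. The siCont BMP-2 array was the low one. The relative log2 ratio was -0.50 with a robust SD of 0.11. Cdkn2a, its neighbour on chromosome 4, which encodes p16 and p19Arf, had 1901, 1678 and 1941 (relative log2 ratio -0.19), and Cdkn2c (p18) 1473, 1351 and 1331 (-0.13).
Cdkn1b (p27), of the Cip/Kip family, had signals of 743 with vehicle and 581 with BMP-2, a relative log2 ratio of -0.36. Its dimmer probe set went the other way, with 23.7 and 37.3 (0.65). Cdkn1c (p57) had signals of 27.7 with vehicle, 12.4 with BMP-2 and 9.2 with BMP-2 after siENG. Only the vehicle signal lay above the Bacillus controls, and by little. The relative log2 ratio of -1.17 for BMP-2 over vehicle became -0.28 with signals under 23.0 set to that value, so the size of the difference is not settled. With Cdkn1c left out by a signal limit at the 75th percentile, 152, the median of the inhibitors was -0.29.

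**Figure D2:**
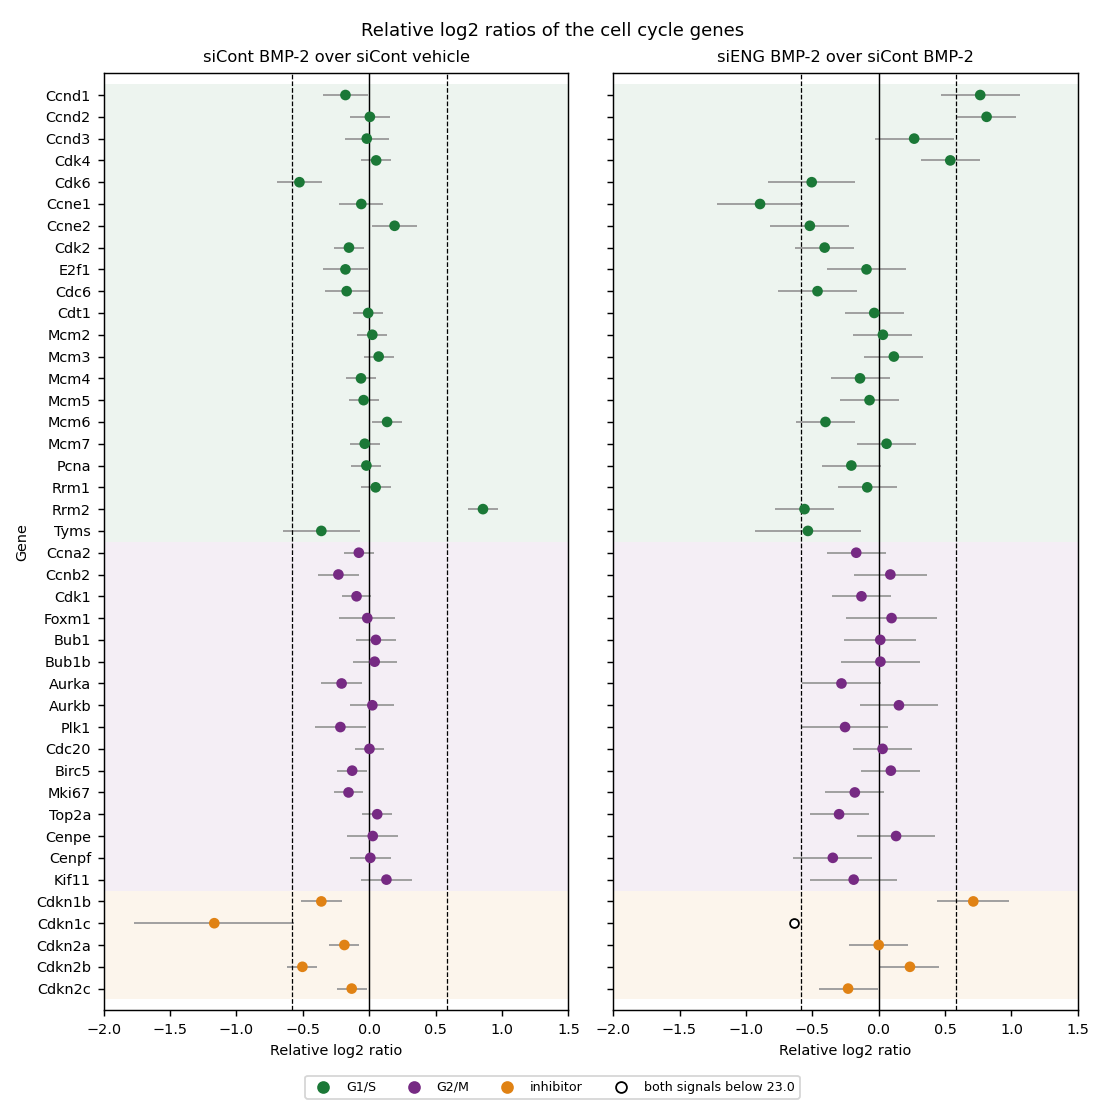
Relative log2 ratio of each cell cycle gene (horizontal axis) by brightest probe set, with BMP-2 set against vehicle on the left and siENG against siCont, both with BMP-2, on the right. Horizontal bars are the robust SD of probe sets of similar signal, not an error between cultures, and dashed lines mark 1.5-fold. Rrm2 stands alone beyond the right line on the left panel, and on the right panel Ccnd1, Ccnd2 and Cdkn1b lie beyond 1 line and Ccne1 beyond the other, with Cdkn1c as an open circle because both of its signals were under 23.0.

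The second comparison asks how a knockdown that reduced but did not remove Eng mRNA changes cells that receive BMP-2. The cyclins Ccnd1 and Ccnd2 and the inhibitor Cdkn1b were higher with siENG and the cyclin Ccne1 was lower, each by 1.5-fold or more, and most helicase and mitotic genes lay near the median of the array. Of 41 members past the signal limit, 3 were higher by 1.5-fold or more (Ccnd1, Ccnd2 and Cdkn1b), 1 was lower (Ccne1) and 37 lay between. Over 10854 genes kept, 7.62% were higher and 7.99% lower. At 2-fold 0 members passed in either direction, against 2.32% and 2.70% of all genes. The share of members past 1.5-fold was therefore near or under that of all genes, and the description below rests on single genes. A fixed fold takes no account of signal, on which precision depended, and most members were bright. Against the robust SD of probe sets of similar signal, 47.6% of 21 G1/S genes lay within 1 SD. So did 1 of 4 inhibitors and 87.5% of 16 G2/M genes, against 64.1% of all genes kept. By this measure a larger share of G1/S genes and inhibitors than of all genes lay beyond 1 SD, and a smaller share of G2/M genes. For the inhibitors this rested on Cdkn1b and on Cdkn2b (0.24) and Cdkn2c (-0.23), which barely passed their robust SD of 0.22. As deposited Cdkn2c was at -0.02, so its place beyond 1 SD depends on the scaling. The same siCont BMP-2 array is the lower term here and the upper term in the first comparison.

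Ccnd2, a D-type cyclin, had signals of 939 with vehicle, 947 with BMP-2 and 1923 with BMP-2 after siENG. The siENG array was the high one and the siCont arrays were alike. The relative log2 ratio of siENG over siCont was 0.81, with a robust SD of 0.22 at that signal, and all 7 probe sets were higher, at 0.56 to 1.16. Ccnd1, the D-type cyclin most closely tied to growth factor signals, had 340.5, 302 and 594. Its relative log2 ratio was 0.76, and its 3 probe sets gave 0.64 to 1.02. Ccnd3 had 345, 342 and 476, with a ratio of 0.27, which is within the robust SD of 0.30.
Cdk4 had signals of 1722 with vehicle, 1795 with BMP-2 and 3016 with BMP-2 after siENG. Its relative log2 ratio was 0.54, just short of 1.5-fold, and its 3 probe sets gave 0.38 to 0.54. Cdk6 was at -0.50, with a robust SD of 0.33, and its 3 probe sets gave -0.53 to 0.25. As deposited Cdk6 was at -0.29, so the size of its difference depends on the scaling. The log2 ratio of Cdk4 exceeded that of Cdk6 by 1.04, a difference that a single scaling factor per array cannot change.

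Ccne1 had signals of 385 with vehicle, 372 with BMP-2 and 231 with BMP-2 after siENG, so here the siENG array was the low one. The relative log2 ratio was -0.89, with a robust SD of 0.33, and its second probe set gave -0.84. As deposited, without regard to the brighter siENG array, it was -0.68. The log2 ratio of Ccnd2 exceeded that of Ccne1 by 1.71 with siENG over siCont and by 0.06 with BMP-2 over vehicle. A single scaling factor per array cannot change these differences. Ccne2 had signals of 395, 453 and 366 and Cdk2 1380, 1248 and 1089, with relative log2 ratios of -0.52 and -0.41, both short of 1.5-fold. The robust SD of relative log2 ratios at the signal of Cdk2 was 0.22. As deposited Cdk2 was at -0.20, so the size of its difference depends on the scaling. E2f1 was at -0.09 in its brightest probe set and 0.45 in its second.

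**Figure D3:**
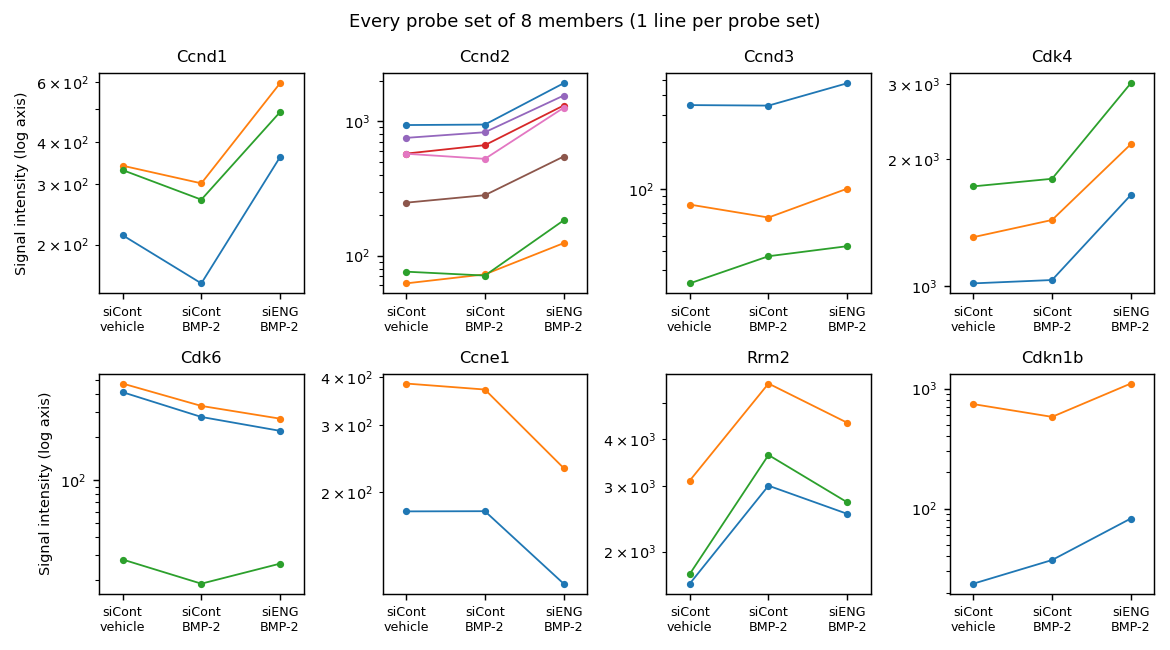
Signal intensity (log axis) on the 3 arrays for every probe set of 8 members, with 1 line per probe set. The lines of Ccnd1, Ccnd2 and Cdk4 run up to the siENG array in every probe set, those of Ccne1 run down, and those of Rrm2 peak on the siCont BMP-2 array.

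The members for nucleotide supply and the clamp all had relative log2 ratios below 0 with siENG in their brightest probe set, with 0 of 4 past 1.5-fold. Of the 10854 genes kept, 5020 were below 0. As deposited Rrm1 was at 0.12 and Pcna at 0.00, so the shared sign depends on the scaling. The other probe sets of Rrm1 had relative log2 ratios of 0.00 and, in a dim one, 0.59. Rrm2 had a relative log2 ratio of -0.56, just short of 1.5-fold, and -0.63 to -0.46 over its 3 probe sets, while Rrm1 was at -0.09 and Pcna at -0.21. Relative to vehicle, Rrm2 with BMP-2 after siENG was at 0.29. Tyms was at -0.53, with a robust SD of 0.40. Of the licensing genes, Cdc6 was at -0.46 and Mcm6 at -0.40. Cdt1 and the other helicase genes lay between -0.14 (Mcm4) and 0.11 (Mcm3) in their brightest probe sets. Other bright probe sets of Mcm3 and Mcm2 gave up to 0.46 and 0.27, and a dim one of Mcm5 gave -0.35. As deposited, the licensing group had a median log2 ratio of 0.16, and relative to the array median -0.05, so the sign of that group depends on the scaling.

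The 16 G2/M genes ran from -0.35 (Cenpf, of the kinetochore) to 0.15 (Aurkb), with 8 above 0 and 8 below and a median of -0.06, or 0.15 as deposited. Of these, 87.5% lay within 1 robust SD of probe sets of similar signal, against 64.1% of all genes kept. Top2a, which untangles sister chromatids, was at -0.30, Aurka at -0.28, Plk1 at -0.25, Kif11 at -0.19, Mki67 at -0.18, Ccna2 at -0.17 and Cdk1 at -0.13. Cenpe (0.13), Foxm1 (0.10), Birc5 (0.09), Ccnb2 (0.09), Cdc20 (0.03), Bub1 (0.01) and Bub1b (0.01) were on the other side of 0. Some probe sets of a gene did not give 1 value. The other probe sets of Foxm1 past the limit gave -0.37 and -0.54, and the dimmest probe set of Cdc20 had signals of 18.9, 8.3 and 132, whereas its brighter probe sets were nearly level. The second probe set of Bub1b past the limit gave -0.28, that of Bub1 -0.35 and the other 2 of Kif11 -0.31 and -0.41. Aurkb and Cenpe stayed above 0, and Ccna2, Top2a and Cenpf below 0, in every probe set past the limit. The split of 8 and 8 and the 87.5% thus hold for the brightest probe sets only.

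Cdkn1b was the inhibitor that differed most between siENG and siCont. Its signals were 743 with vehicle, 581 with BMP-2 and 1102 with BMP-2 after siENG, so the siENG array was the highest. The relative log2 ratio was 0.71, with a robust SD of 0.27, and the dimmer probe set gave 0.94. Cdkn2b was at 0.24, Cdkn2a at 0.00 and Cdkn2c at -0.23. Both signals of Cdkn1c lay within the range of the Bacillus controls, and no ratio is given.

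**Figure D4:**
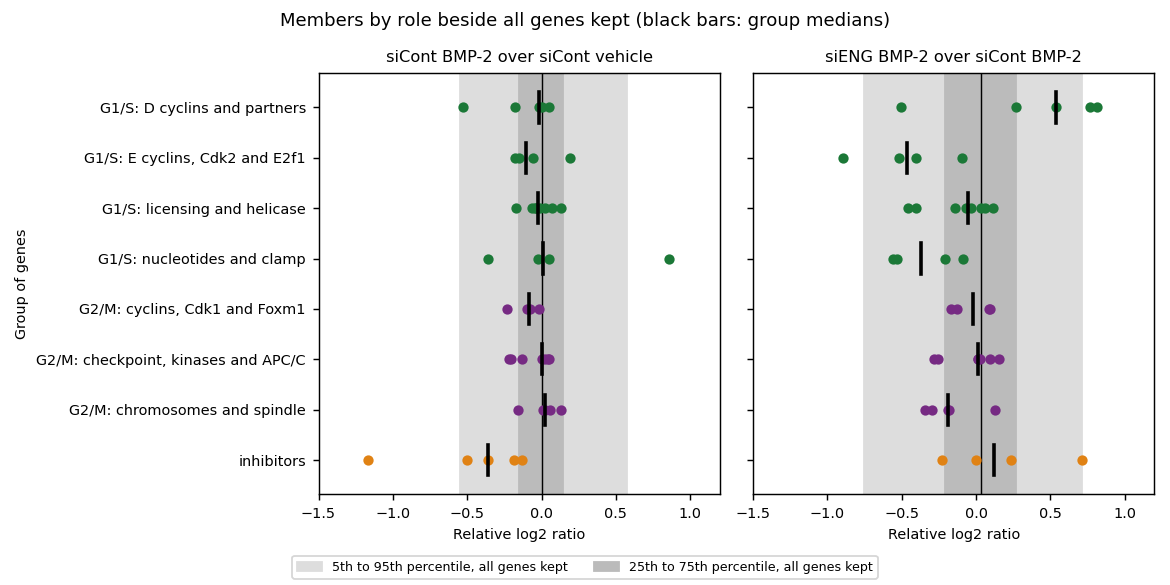
Relative log2 ratio (horizontal axis) of cell cycle genes in 8 groups by role (vertical axis), with 1 point per gene and black bars at group medians, with BMP-2 set against vehicle (left) and siENG against siCont, both with BMP-2 (right). Light and dark grey bands hold the 5th to 95th and the 25th to 75th percentile of all genes kept. On the right the D cyclin group has a median of 0.54 and the group of E cyclins, Cdk2 and E2f1 one of -0.46, and the other groups lie between.

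Genes of other lists differed further on the siENG array. Of 13 hypoxia-responsive genes past the limit, 10 were higher by 1.5-fold and 0 lower with siENG over siCont. Their median relative log2 ratio was 1.71. Of 11 interferon-stimulated genes, 6 were higher and 0 lower, with a median of 0.97. Of all genes kept, 7.62% were higher and 7.99% lower. Ankrd37 (4.3 with siCont, 311 with siENG) and Oas2 (12.1 and 57.1), both counted as higher, passed the limit here through the siENG array alone. So did Car9 (-0.10) and Rsad2 (0.23), which fell short of 1.5-fold. The lists were chosen with earlier results of these data known. With BMP-2 over vehicle the medians were -0.16 over 11 hypoxia genes and -0.38 over 10 interferon genes. Ankrd37, Car9 and Rsad2 were not past the limit there. The summed signal of the hypoxia list was 11308 with vehicle, 11162 with BMP-2 and 26952 with BMP-2 after siENG, and that of the interferon list 1182, 899 and 2771. The part of either response in the values of the cyclins, kinases and inhibitors was not tested. Leukocyte markers past the limit were 3 of 4, and all 3 were higher with siENG, Cd68 by 1.02, Csf1r by 0.39 and Lyz2 by 0.28 in relative log2 ratio. The summed signal of the 4 markers was 127 with vehicle, 108 with BMP-2 and 210 with BMP-2 after siENG, while the defining marker Ptprc was within the control range throughout. Their part in the results was likewise not tested.

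The siENG BMP-2 array can also be set against siCont vehicle, which asks where cells with both treatments stand relative to untreated controls. Both agents differ here and cannot be told apart. Of 42 members, 2 were higher by 1.5-fold (Ccnd2 and Cdk4), where 7.68% of all 10847 genes kept were higher, and 5 were lower (Cdk6, Ccne1, Cdc6, Tyms and Cdkn1c), where 8.31% were. At 2-fold 0 were higher, against 2.25% of all genes, and 2 were lower (Cdk6 and Cdkn1c), against 2.85%. Ccnd2 had a relative log2 ratio of 0.81, Cdk4 of 0.59 and Ccnd1, just short of the threshold, of 0.58. Cdk6 was at -1.03, Ccne1 at -0.96, Tyms at -0.90 and Cdc6 at -0.63. Cdkn1c, dim as above and past the limit through the vehicle array alone, was at -1.81, or -0.47 with signals under 23.0 set to that value. The call of Cdk4 was marginal, since it held under 3 of 9 alternatives, with values of 0.51 to 0.81. Cdk6 was lower on the siCont BMP-2 array than with vehicle and lower again with siENG, whereas Ccne1 was near its vehicle level with siCont and BMP-2. The medians of G1/S and G2/M genes were -0.12 and -0.11, or 0.11 and 0.12 as deposited, so their sign rests on the scaling.

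Wider lists of replication genes, mitosis genes, E2F and pocket protein genes and further inhibitors gave 119 measured genes past the limit. With BMP-2 over vehicle, 0 of the 119 were higher and 0 lower by 1.5-fold (4.82% and 4.44% of all genes kept), with a median relative log2 ratio of -0.04. With siENG over siCont, 2 were higher and 4 lower (7.62% and 7.99% of all genes kept), with a median of -0.06. Of 52 further mitosis genes, 11 were above and 41 below 0, with a median of -0.10 that became 0.11 as deposited, so the sign rests on the scaling. Of 48 further replication genes, 26 were above and 22 below 0, with a median of 0.05. Rfc1, a subunit of the factor that loads Pcna onto DNA, had signals of 362 with vehicle, 365 with BMP-2 and 692 with BMP-2 after siENG (relative log2 ratio 0.71). Gins2, a subunit of the replicative helicase, had 333, 279 and 507 (0.65). Both were higher on the siENG array alone.
Tfdp2, a partner of E2F proteins in binding DNA, had signals of 780 with vehicle, 823 with BMP-2 and 406 with BMP-2 after siENG, the lowest relative log2 ratio of the wider lists at -1.23. Prc1, which bundles microtubules in the midzone of the dividing cell, had 854, 790 and 559 (-0.71). The others lower by 1.5-fold, Pold3 (-0.78) and E2f2 (-0.81), were dimmer, with signals of 145 or less. The pocket protein gene Rb1 had 248, 217 and 361 (0.52), and the inhibitor Cdkn1a (p21) 2287, 2245 and 2903 (0.16).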

How the data were processed

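Affymetrix Mouse Genome 430 2.0 arrays held biotin-labelled RNA of 3 samples, 1 per group. The table the authors deposited gives 45101 probe sets as signal intensity on a linear scale. GCOS 1.4 is named in the submitters' processing notes, but neither signal algorithm nor scaling is given in the sources used here. Signals at 0 (3 with vehicle, 1 with siCont and BMP-2) were set to 0.1. After 64 control probe sets were left out, 34945 carried 1 gene symbol in the platform annotation (updated through RefSeq identifiers, GRCm38.p6), and, controls included, 932 carried several and 9211 none. A gene was kept in a comparison where the higher signal was at or above 23.0, and log2 ratios were centred on the median of non-control probe sets past that limit. Robust SD is 1.4826 times the median absolute deviation over all non-control probe sets of a bin. Intensities of single arrays allowed no test, and the number of arrays limits the precision.

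All 43 members are named. From the wider lists, up to 3 genes per direction past 1.5-fold and a signal of 152 were named for the first 2 comparisons, and Eng. Pold3, E2f2, Rb1 and Cdkn1a were chosen after their values were seen. Members and lists were chosen with earlier results of these data known. Ratios were tested on simulated data, but no outcome is given here and no result rests on that test. Calculations used Python 3.11.15, numpy 2.4.6, pandas 2.3.3, scipy 1.17.1, statsmodels 0.14.6 and matplotlib 3.10.9.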

Additional observations from a re-analysis of the deposited data

How the results depend on the processing

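Alternatives were signals as deposited, leaving out the signal limit, setting it at the 75th percentile (152), quantile normalization, lowess centring (fraction 0.3), 2% trimmed mean scaling, the mean over probe sets, the second brightest probe set and a floor at the median signal. With 1 array per group no array could be left out. No paired analysis was possible because each group has 1 array. Rrm2 with BMP-2, and Ccnd1, Ccnd2, Cdkn1b and Ccne1 with siENG over siCont, kept their direction and 1.5-fold under all 9. Rrm2 ranged from 0.82 to 1.05, Ccnd1 from 0.64 to 0.97, Ccnd2 from 0.70 to 1.02, Cdkn1b from 0.69 to 0.94 and Ccne1 from -0.92 to -0.68.

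For BMP-2 over vehicle, 0 members were lower by 1.5-fold with the floor or the limit at 152, since Cdkn1c is dim, and 3 with the mean over probe sets (Tyms, Aurka and Cdkn1c), against 1. With the second probe set 2 were higher (Rrm2 and Cdkn1b), against 1. The inhibitor median was -0.19 with the mean or second probe set, against -0.36. For siENG over siCont with BMP-2, 5 were higher (Ccnd1, Ccnd2, Tyms, Cdc20 and Cdkn1b) and 2 lower (Ccne1 and E2f1) with the mean over probe sets, against 3 and 1. Counts of 2 lower were also given by the second probe set (Ccne1 and Rrm2) and with no limit (Ccne1 and Cdkn1c). For siENG BMP-2 over vehicle, 1 member was higher with quantile, lowess or trimmed mean scaling or the limit at 152, against 2, and lower were 6, 6, 5 and 4. Cdk4 was the member lost from that count, and it also fell short with the mean over probe sets and the second probe set. As deposited 3 were higher and 4 lower, the G1/S median was 0.11 and the inhibitor median -0.051. The cause of these differences was not tested. Dim probe sets, such as those of Tyms and Cdkn1c, limit what can be read.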
